A study of Mus musculus with 3 samples.

Results

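The 50 genes described here encode the machinery of mitosis: the kinases and cyclins that start it, the kinetochore and the checkpoint that guards chromosome attachment, the spindle and its motors, the proteins that release sister chromatids, the condensins, and the proteins that cut the cell apart. They were chosen by gene symbol from a written list, and all 50 were found among the 16072 named genes of the expression table. Of these, 46 had a mean of at least 1 FPKM over the 3 libraries, the minimum used for counts. The other 4 (Cdc25c, Bub1, Ttk and Kif20b) lay below it and are given by their values. FPKM is the number of sequenced fragments of a gene divided by transcript length and by library depth, so levels can be set side by side between genes.

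RNA-seq was performed on Ly6G+ myeloid cells of the bone marrow (BM), and 3 libraries were analysed, 2 labelled AAV-Ctrl and 1 labelled AAV-IL-27. All were from C57BL/6 mice, which the study used at 6 to 10 weeks of age. Every mouse, controls included, carried B16.F10 melanoma cells, injected under the skin 1 week before the vector was given into muscle. The AAV-IL-27 vector, an adeno-associated virus, carries murine IL-27 (EBI3 and p28 joined in 1 chain) under the ubiquitous CAG promoter, and AAV-Ctrl is the same vector without the cytokine. The cells were collected 3 weeks after the vector, by the study's figure legend, which names them Gr-1+. Each library is from a separate mouse as far as the labels tell. A further column of the table carries an AAV-IL-27 name but belongs to no sample in the labels, so it was not used, and the group is read from its 1 labelled library. No test was run and no p-value is given, because that library has no replicate here. The gap between the 2 controls is therefore given as the measure of spread between mice.

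Cells enter mitosis when cyclin B and CDK1 become active, a step driven by CDC25 phosphatases and Polo-like kinase. The spindle then captures each chromosome at its kinetochore, and the checkpoint holds back the anaphase-promoting complex until every kinetochore is attached. Most of these genes are switched on together late in the cell cycle by the MuvB complex with B-Myb and FOXM1, acting on promoters that often carry a CCAAT box and a cell cycle genes homology region (CHR). In the BM, neutrophil precursors divide through the myelocyte stage, after which granulocytes mature without dividing.

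Depth was similar between libraries. Judged by the step size of low FPKM values, AAV-Ctrl 1 had about 19060000 fragments, AAV-Ctrl 2 about 19400000 and AAV-IL-27 about 19060000. All 12 late neutrophil markers were abundant, the lowest single value being 532.69 FPKM, and Ly6g itself was at 711.76 and 766.11 FPKM in the controls and 586.29 FPKM with IL-27, so the labelled cell type was present in each. Triplets of values are given throughout in the order AAV-Ctrl 1, AAV-Ctrl 2, AAV-IL-27, and the AAV-Ctrl libraries are also called controls. Transcripts of other BM cells were present as well and differed between groups. Summed levels of the 19 erythroid markers were 20600, 14000 and 2370 FPKM. All 19 were lower in AAV-IL-27 by at least 1 log2 unit than in both AAV-Ctrl libraries, against 2.32% of all genes above the minimum. The same held for 12 of 14 macrophage markers (summed 929, 912 and 313 FPKM), for 4 of the 5 B lineage markers above the minimum (32.2, 43.0 and 6.37 FPKM over the 11 listed, with Vpreb2 listed at 0 in AAV-IL-27) and for 4 of 7 megakaryocyte markers (58.4, 65.5 and 12.1 FPKM over the 9 listed). Summed levels of the 10 granulocyte progenitor markers were 206, 238 and 236 FPKM, with Cebpe alone at 119.34, 138.7 and 124.05 FPKM. Of the 9 above the minimum, 7 lay above both AAV-Ctrl libraries, against 38.9% of all genes, and 1 below both, against 41.9%. The erythroid sum was higher in AAV-Ctrl 1 than in AAV-Ctrl 2, while the B lineage sum was higher in AAV-Ctrl 2. The part of these other cells in the results below was not tested, and in a bulk sample fewer cells of a type and less RNA per cell cannot be told apart.

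Mitotic genes were lower in the AAV-IL-27 library almost throughout, typically at about 50% of their AAV-Ctrl level. The value in AAV-IL-27 lay below both AAV-Ctrl libraries for 47 of the 50 genes, and for 43 of the 46 above the minimum, against 41.9% of all 9130 genes above it. It lay above both for 2 (Kif23 and Pttg1), against 38.9% of all genes. At most 50% of the AAV-Ctrl mean was reached by 25 of the 50, and by 22 of the 46, against 5.7% of all genes, a cut chosen after the values were seen. Over all 50, the AAV-IL-27 level had a median of 50.2% of the AAV-Ctrl mean and ranged from 30.1% for Cdc25b to 113.0% for Kif23. Between 40% and 60% of the AAV-Ctrl mean lay 32 genes, 6 were under 40%, 5 were from 60% to under 80%, 4 from 80% to under 100% and 3 at 100% or more. Summed over the 50 genes, the level was 333, 368 and 224 FPKM, so that AAV-IL-27 stood at 64.0% of the AAV-Ctrl mean. None was listed at 0 in any library, and single values ran from 0.36 to 32.38 FPKM.

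Differences were computed as log2(FPKM + 1) of AAV-IL-27 minus the AAV-Ctrl mean, which shrinks the differences of genes with low levels. The median difference was -0.65 over the 46 genes, beside -0.01 over all 9130 genes, while the members' median difference between the AAV-Ctrl libraries (AAV-Ctrl 2 minus AAV-Ctrl 1) was 0.13. A gene was called lower when AAV-IL-27 lay at least 1 log2 unit below each AAV-Ctrl library. By this rule 6 of 46 genes were lower (Cdc25b, Nusap1, Ube2c, Mki67, Ccna2 and Birc5), against 2.32% of all genes, and 0 were higher, against 0.307%. Just inside the threshold were Birc5 and Ccna2, at -1.0 and -1.01 to the nearer AAV-Ctrl library, and just outside it were Ccnb2 (-0.97), Prc1 (-0.96) and Ccnb1 (-0.95). Rescaling to equal FPKM totals ended the calls of Ccna2, Birc5 and Mki67 (-0.97, -0.96 and -0.98), rescaling by median ratios also that of Ube2c, and Cdc25b and Nusap1 were called under both. At a threshold of 0.5, 25 of 46 were lower, against 7.01% of all genes, and again 0 were higher, against 1.57%. The count at the threshold of 1 moved with the processing, from 2 to 15, as given in the closing section, whereas 47 of the 50 genes had a negative difference under every setting tried. In 48 of the 50 genes the difference between groups was larger than that gene's own difference between the AAV-Ctrl libraries, which reached 0.51 at most (Bub1b). Above the minimum this held for 44 of 46, against 65.8% of all genes. In 21 genes AAV-IL-27 lay more than 0.57 below the nearer control, and 0.57 is the 99th percentile of the gap between controls over all 9130 genes, of which 5.9% lay as far below.

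**Figure D1:**
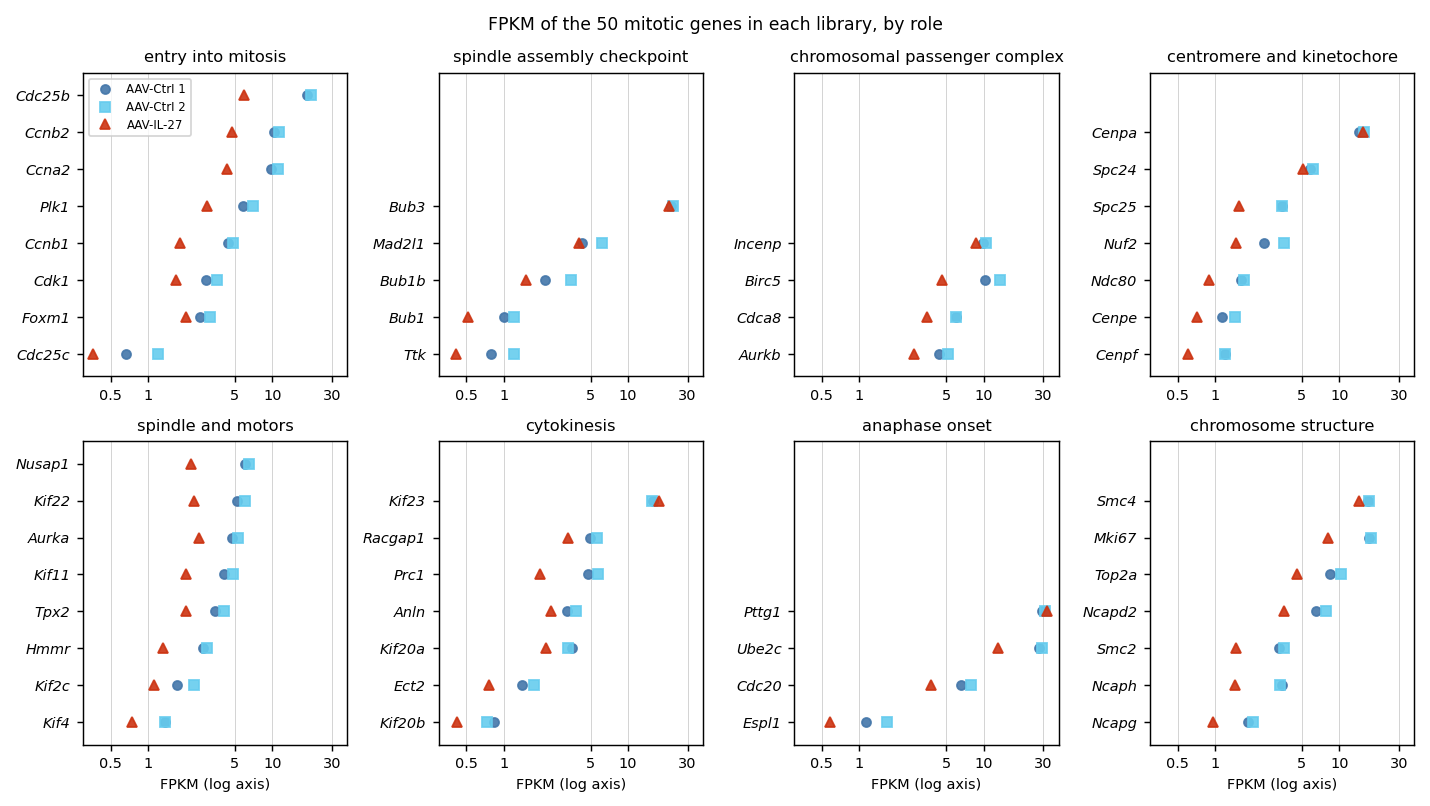
FPKM (log axis) of the 50 mitotic genes in AAV-Ctrl 1 (circles), AAV-Ctrl 2 (squares) and AAV-IL-27 (triangles), 1 point a library, grouped by role and ordered by mean level. The AAV-IL-27 triangle lies left of both AAV-Ctrl points for 47 genes, and lies between or right of them for Cenpa, Kif23 and Pttg1.

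The AAV-Ctrl libraries also differed from each other in these genes, in a smaller way. AAV-Ctrl 2 was above AAV-Ctrl 1 in 40 of the 46 genes, against 50.3% of all genes. The order AAV-Ctrl 2, AAV-Ctrl 1, AAV-IL-27 from high to low was found in 38 of 46, against 24.8% of all genes. When a control was set against the other 2 libraries by the rule of 1 log2 unit, 0 members were called. That count was fixed beforehand, because the gap between controls was at most 0.51 in any member. Of all genes, 0.0329% were called lower and 0.0% higher for AAV-Ctrl 1, and 0.011% lower and 0.0329% higher for AAV-Ctrl 2.

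Fragment numbers could be estimated for the 32 members with a single transcript. In 24 of them the 95% Poisson interval in AAV-IL-27 lay below the intervals of both AAV-Ctrl libraries, while the intervals of the AAV-Ctrl libraries overlapped each other in 26. Above the minimum the counts were 23 and 24 of 30, against 15.2% and 84.2% of all 5940 such genes with a single transcript. Ccnb1, for instance, had about 204, 228 and 83 fragments, with an interval of 66.1 to 102.9 in AAV-IL-27. The lowest was Cdc25c, with 24, 44 and 13 fragments, whose interval in AAV-IL-27 (6.9 to 22.2) overlapped that of AAV-Ctrl 1 (15.4 to 35.7). The other members without separation were Foxm1, Bub1b, Mad2l1, Incenp, Ndc80, Spc24 and Kif23. These intervals cover counting error only.

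The promoters of the members were searched for the motifs known from late cell cycle genes. The members were chosen as mitotic genes, so the shares below describe the list and do not draw on the differences between groups. RefSeq windows from 250 bases before to 50 bases after the transcription start (GRCm38.p6) were found for 41 members, as 44 windows. The motifs were the CHR hexamer TTTGAA (also read as TTCAAA on the other strand), its variant TTTAAA (which reads alike on both strands) and the CCAAT box (ATTGG on the other strand), each searched on its own, so that motifs may share letters. The hexamer TTTGAA stood in 34 of 44 member windows (77.3%), against 17.9% of all 32851 windows of this length and 12.1% of the windows of genes with a mean of at least 1 FPKM. CCAAT stood in 77.3% of member windows, against 37.4% of all windows, 63.9% of the windows of other mitotic genes and 68.2% of those of replication genes. Both were present in 30 member windows (68.2%), against 6.95% of all. TTTAAA stood in 9 member windows (20.5%), against 13.2% of all.

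The stretches that follow are the bases directly before the gene, 5′ to 3′ on the gene's strand, for members whose values are given in detail: CDK1 and its cyclin, Polo-like kinase, both ubiquitin ligase partners Cdc20 and Ube2c, the motor Kif11, the topoisomerase Top2a, and for contrast Nusap1, called lower with neither motif, and Bub3, hardly different between groups with both. Capitals mark the CHR hexamer, its variant and the CCAAT box, on either strand.
Cdk1 (chr10:69352913-69353032, minus strand): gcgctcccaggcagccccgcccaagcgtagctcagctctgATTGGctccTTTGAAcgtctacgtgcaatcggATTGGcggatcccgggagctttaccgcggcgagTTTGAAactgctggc
Ccnb1 (chr13:100786487-100786606, minus strand): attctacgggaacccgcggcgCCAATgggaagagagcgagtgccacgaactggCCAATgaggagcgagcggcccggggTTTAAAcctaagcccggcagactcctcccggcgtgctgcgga
Plk1 (chr7:122159315-122159434, plus strand): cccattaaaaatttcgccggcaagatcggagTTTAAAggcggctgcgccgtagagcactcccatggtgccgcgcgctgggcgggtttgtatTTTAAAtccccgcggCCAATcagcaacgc
Cdc20 (chr4:118437344-118437463, minus strand): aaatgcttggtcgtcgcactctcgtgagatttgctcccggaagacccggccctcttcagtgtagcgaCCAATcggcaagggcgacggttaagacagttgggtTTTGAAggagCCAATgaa
Ube2c (chr2:164769809-164769928, plus strand): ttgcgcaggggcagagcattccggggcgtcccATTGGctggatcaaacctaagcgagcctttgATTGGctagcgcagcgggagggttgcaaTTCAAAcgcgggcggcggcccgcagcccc
Kif11 (chr19:37376262-37376381, plus strand): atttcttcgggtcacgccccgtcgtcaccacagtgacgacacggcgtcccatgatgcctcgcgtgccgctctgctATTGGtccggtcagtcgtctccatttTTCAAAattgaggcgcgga
Top2a (chr11:99024200-99024309, minus strand): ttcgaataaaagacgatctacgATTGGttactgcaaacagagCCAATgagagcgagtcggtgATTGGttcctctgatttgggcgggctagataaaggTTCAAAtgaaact
Nusap1 (chr2:119618178-119618297, plus strand): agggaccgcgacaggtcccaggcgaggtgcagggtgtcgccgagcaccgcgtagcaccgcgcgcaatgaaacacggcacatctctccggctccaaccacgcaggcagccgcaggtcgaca
Bub3 (chr7:131560250-131560366, plus strand): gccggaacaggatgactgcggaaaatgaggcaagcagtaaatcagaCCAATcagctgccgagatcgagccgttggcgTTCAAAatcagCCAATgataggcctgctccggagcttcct
In Ube2c, Cdc20, Kif11, Top2a and Bub3 a single CHR hexamer lies within 50 bases of the end of the stretch, with at least 1 CCAAT box. The stretch of Cdk1 holds 2 of each, and that of Nusap1 holds none of these motifs. In the stretches of Ccnb1 and Plk1 TTTAAA is present and TTTGAA is not, though the window of Plk1 holds TTTGAA further on, 31 bases after the start. A match is a description of the sequence and not a site shown to be bound.

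The CHR hexamer was concentrated at the start site. Within 50 bases on either side it stood in 30 of 44 member windows (68.2%), against 4.94% of all windows. The 44 matches in member windows ran from 215 bases before the start (position -215) to 41 after it, with a median position of -10, and 21 of them lay after the start. Other mitotic genes outside the 50 held it within the same distance in 30.6% of 72 windows, and replication genes in 9.09% of 22 windows. The median log2 difference was -0.65 over 29 genes with the hexamer and -0.85 over 9 genes without it. Of these, 2 and 3 were called lower, against 2.32% of all genes. For CCAAT the medians were -0.76 over 29 genes with it and -0.5 over 9 genes without it. The 9 members without a window, among them Ccna2, Incenp, Spc24 and Smc4, are in none of these sets. Some members without the hexamer, such as Ccnb1 and Cenpe, held its variant TTTAAA. Whether a motif bears on the difference was not tested. Among members without the CHR hexamer were both the lowest by percentage (Cdc25b) and one of those above the AAV-Ctrl libraries (Pttg1).

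**Figure D2:**
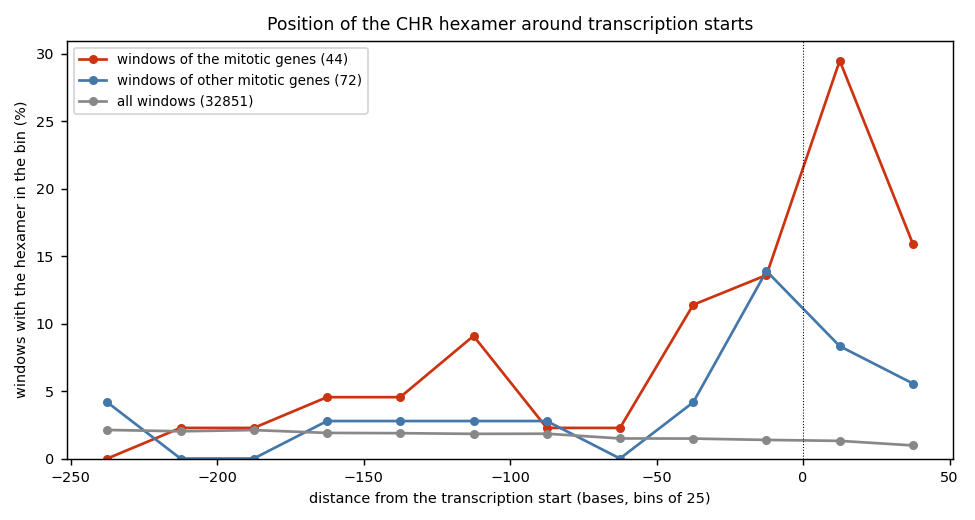
Percentage of promoter windows with the CHR hexamer TTTGAA, on either strand, in bins of 25 bases by distance from the transcription start, for the mitotic genes (44 windows), other mitotic genes (72) and all genes (32851). The line of the mitotic genes peaks in the first bin after the start, where 13 of 44 windows (29.5%) hold it.

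Genes that start mitosis had the lowest relative levels of the 8 roles. Their sum was 55.5, 62.6 and 23.9 FPKM (40.4% of the AAV-Ctrl mean). All 7 above the minimum lay below both AAV-Ctrl libraries, against 41.9% of all genes, and 2 were called lower, against 2.32%. Cdc25b (NCBI Gene 12531, GRCm38.p6 chromosome 2 from 131186436 to 131198511), the phosphatase that removes inhibitory phosphates from cyclin-dependent kinases, was at 19.03, 20.42 and 5.93 FPKM, a log2 difference of -1.58 beside 0.10 between the controls. This was the lowest of the 50 genes, at 30.1% of the AAV-Ctrl mean of 19.7 ± 0.983 FPKM (SD, n = 2). Ccna2 (cyclin A2, NCBI Gene 12428, chromosome 3 from 36564865 to 36573038) was at 9.76, 11.13 and 4.33 FPKM, a difference of -1.10 beside 0.17.

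The B-type cyclins, which activate CDK1, were just short of the threshold. Ccnb2 was at 10.33, 11.38 and 4.77 FPKM (difference -1.04) and Ccnb1 at 4.42, 4.85 and 1.80 FPKM (-1.01, or 38.8% of the AAV-Ctrl mean). In both, the AAV-Ctrl libraries stood within 0.13 log2 units of each other and clear of AAV-IL-27. Cdk1, the kinase itself, was at 2.90, 3.57 and 1.69 FPKM (52.2%), and Plk1, Polo-like kinase 1, at 5.81, 6.94 and 2.98 FPKM (46.7%). Both CDK1 and its cyclins were thus lower together, by differing percentages. Cdc25c was at 0.67, 1.21 and 0.36 FPKM, near the lower end of what this depth resolves. Foxm1, the transcription factor of late cell cycle genes, had the smallest difference of this role, at 2.63, 3.12 and 2.02 FPKM (70.3%, difference -0.36 beside 0.18).

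The spindle assembly checkpoint was split by member. Bub3, a subunit that brings checkpoint proteins to kinetochores, was the most abundant, at 22.19, 22.77 and 21.49 FPKM, and AAV-IL-27 was at 95.6% of the AAV-Ctrl mean, a difference of -0.06 beside 0.04. Its partner kinases were lower in relative terms, Bub1 at 1.01, 1.22 and 0.52 FPKM (46.6%) and Bub1b, encoding BubR1, at 2.16, 3.49 and 1.51 FPKM (53.5%). The checkpoint kinase Ttk (MPS1) was at 0.79, 1.20 and 0.41 FPKM (41.2%). Mad2l1, whose product binds CDC20 and blocks it, was at 4.24, 6.21 and 4.05 FPKM: AAV-IL-27 and AAV-Ctrl 1 differed by 0.05 log2 units, less than the 0.46 between the AAV-Ctrl libraries. Of the 3 checkpoint genes above the minimum 0 were called lower, against 2.32% of all genes. Over all 5 the summed level was 30.4, 34.9 and 28.0 FPKM (85.7%), most of it from Bub3.

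The chromosomal passenger complex corrects faulty attachments and moves to the midzone in anaphase. Of its 4 members 1 was called lower, against 2.32% of all genes. Birc5, encoding survivin (NCBI Gene 11799, chromosome 11 from 117849237 to 117855743), was at 10.23, 13.48 and 4.61 FPKM (38.9%), a difference of -1.18 beside 0.37 between the AAV-Ctrl libraries. The scaffold Incenp was at 9.87, 10.41 and 8.59 FPKM (84.7%, -0.22). The catalytic subunit Aurkb was at 4.40, 5.11 and 2.75 FPKM and Cdca8 (borealin) at 6.02, 5.98 and 3.47 FPKM, both at 57.8% of the AAV-Ctrl mean. All 4 subunits lay below both AAV-Ctrl libraries, against 41.9% of all genes. Subunits of the same complex differed in how far, from 38.9% to 84.7%.

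Centromere and kinetochore genes contained 1 member that was not lower. Cenpa, the histone H3 variant that marks the centromere, was at 14.37, 15.75 and 15.54 FPKM, so that AAV-IL-27 lay between the AAV-Ctrl libraries (103.2%), and its difference of 0.04 changed sign between settings, from -0.02 to 0.11. The NDC80 complex, which binds microtubule ends, has 4 subunits. Spc24 was at 5.76, 6.16 and 5.11 FPKM (85.7%) and Spc25, its direct partner, at 3.43, 3.46 and 1.56 FPKM (45.3%). Nuf2 was at 2.49, 3.56 and 1.47 FPKM (48.6%) and Ndc80 at 1.63, 1.70 and 0.90 FPKM (54.1%). Spc24 thus stood apart from its 3 partners, which all lay between 45.3% and 54.1%. The large kinetochore proteins Cenpe, a motor, and Cenpf were lowly expressed, at 1.13, 1.44 and 0.72 FPKM and at 1.21, 1.21 and 0.61 FPKM. Of the 7 genes 0 were called lower at the threshold of 1, against 2.32% of all genes, and 1 (Spc25) at 0.5, against 7.01%. Below both AAV-Ctrl libraries lay 6 of the 7, against 41.9%.

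Spindle and motor genes formed the most even role. All 8 lay below both AAV-Ctrl libraries, against 41.9% of all genes, and between 35.6% and 55.6% of the AAV-Ctrl mean. Their sums were 29.5, 33.4 and 14.4 FPKM. Nusap1, which binds and bundles spindle microtubules (NCBI Gene 108907, chromosome 2 from 119618298 to 119650165), was at 6.06, 6.48 and 2.23 FPKM, a difference of -1.17 beside 0.08, and was called lower. Kif22, a motor on chromosome arms, was at 5.23, 6.02 and 2.34 FPKM (-0.99), and Aurka, the centrosomal Aurora kinase, at 4.73, 5.32 and 2.56 FPKM (-0.76). For each of these genes AAV-IL-27 was well below AAV-Ctrl libraries that were close to each other. Kif11, the motor that pushes spindle poles apart, was at 4.08, 4.81 and 2.02 FPKM (45.4%), and Tpx2, which activates Aurora A, at 3.48, 4.11 and 2.02 FPKM (53.2%). Hmmr, Kif2c (a microtubule depolymerase) and Kif4 lay between 46.1% and 55.6%, at AAV-IL-27 levels of 1.33, 1.12 and 0.74 FPKM.

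Cytokinesis genes ranged most widely. Kif23 (NCBI Gene 71819, chromosome 9 from 61917277 to 61946810), the motor subunit of centralspindlin, was at 15.81, 15.56 and 17.72 FPKM, above both AAV-Ctrl libraries at 113.0% of their mean. Its difference of 0.17 exceeded the -0.02 between the AAV-Ctrl libraries but was far from the threshold. Racgap1, the other subunit of centralspindlin, was at 4.91, 5.64 and 3.26 FPKM (61.8%), below both controls, whereas Kif23 was not. Prc1, which bundles antiparallel microtubules in the midzone, was at 4.76, 5.73 and 1.96 FPKM (37.4%, -1.07), the lowest of the role. Ect2, the activator of RhoA at the cleavage furrow, was at 1.40, 1.74 and 0.76 FPKM (48.4%). Anln (anillin) and the midzone motor Kif20a were less far down, at 68.4% and 64.3%, and Kif20b was at 0.84, 0.73 and 0.42 FPKM. None of the 6 genes above the minimum was called lower at the threshold of 1, against 2.32% of all genes.

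The genes of anaphase onset held both the most abundant member and a second exception. Pttg1 (NCBI Gene 30939, chromosome 11 from 43420244 to 43427463), encoding securin, the inhibitor of separase, was at 29.44, 30.88 and 32.38 FPKM (107.4%), and AAV-IL-27 was the highest library by a margin of 0.07 log2 units, the same as the gap of 0.07 between the AAV-Ctrl libraries. Espl1, encoding separase, the protease that opens cohesin rings, was at 1.12, 1.67 and 0.58 FPKM (41.6%). Espl1 was thus below both controls, whereas Pttg1 was not. Ube2c (NCBI Gene 68612, chromosome 2 from 164769929 to 164772902), the ubiquitin-conjugating enzyme of the anaphase-promoting complex, was at 27.85, 29.28 and 12.95 FPKM (45.3%), a difference of -1.08 beside 0.07, and was called lower. Cdc20, the activator that the checkpoint holds back, was at 6.58, 7.95 and 3.74 FPKM (51.5%).

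Chromosome structure genes summed to 57.8, 62.2 and 34.4 FPKM, and 7 of 7 lay below both AAV-Ctrl libraries, against 41.9% of all genes. Mki67 (NCBI Gene 17345, chromosome 7 from 135689784 to 135716450), encoding Ki-67, the coat protein of mitotic chromosomes used to score proliferation, was at 17.40, 17.98 and 8.04 FPKM, 45.4% of the AAV-Ctrl mean of 17.7 ± 0.410 (SD, n = 2). It had the most fragments in AAV-IL-27 of the members for which they could be estimated, 3313, 3485 and 1531, and was called lower with a difference of -1.05 beside 0.04. Top2a, the topoisomerase that untangles sister chromatids, was at 8.32, 10.36 and 4.56 FPKM (48.8%). In condensin, the ring that compacts chromosomes, the subunits were unequal. Smc4 was at 17.05, 17.23 and 14.43 FPKM (84.2%), whereas its partner Smc2 was at 3.26, 3.56 and 1.46 FPKM (42.8%). The condensin I subunits stood with Smc2, Ncapd2 at 49.9%, Ncaph at 42.5% and Ncapg at 1.84, 2.00 and 0.96 FPKM.

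**Figure D3:**
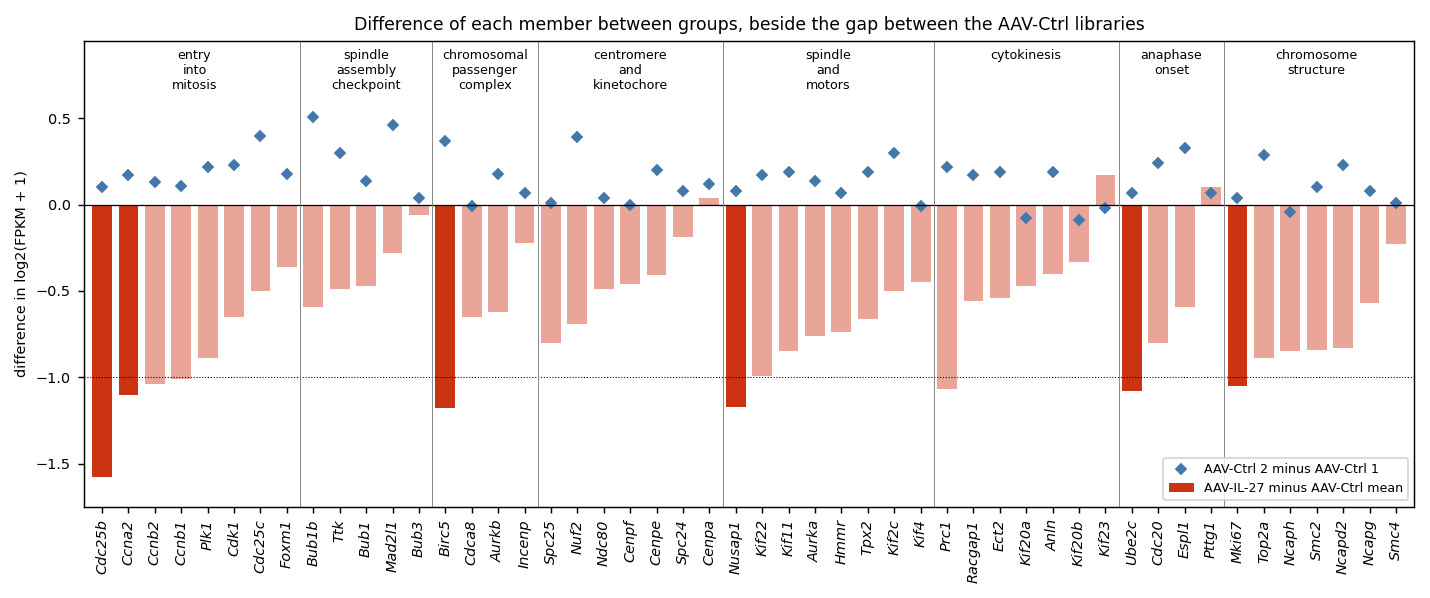
Difference in log2(FPKM + 1) between AAV-IL-27 and the AAV-Ctrl mean (bars) and between AAV-Ctrl 2 and AAV-Ctrl 1 (diamonds) for each of the 50 genes, by role. Dark bars are the 6 genes at least 1 below each AAV-Ctrl library, and the dotted line marks -1.

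The 7 genes at 80% or more of the AAV-Ctrl mean (Bub3, Incenp, Cenpa, Spc24, Kif23, Pttg1 and Smc4) came from 6 of the 8 roles and were mostly abundant ones. By AAV-Ctrl mean they held 5 of the 10 highest levels among members, with a median of 15.7 FPKM, against 3.5 FPKM for the other 43 genes. This set was drawn after the values were seen, and its numbers are a description. Their summed level was 114, 119 and 115 FPKM, while that of the other 43 was 219, 249 and 109 FPKM, 46.7% of the AAV-Ctrl mean. Abundance and a small difference did not always go together, since the other 5 of those 10 were Ccnb2, just short of the threshold, and Ube2c, Cdc25b, Mki67 and Birc5, which were called lower.

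Some values could include fragments of other genes. Ccna2, Cdc25c, Kif4, Kif20a, Prc1, Ube2c and Ncapg share at least 5% of their exon bases with a coding gene on the opposite strand, the most in Kif20a (29.3%, with Cdc23). The libraries marked strand, but whether the counting used it is not given in the sources used here. Cdc23 was at 2.64, 2.86 and 2.32 FPKM, beside 3.53, 3.28 and 2.19 FPKM for Kif20a itself. For Ube2c the partner Tnnc2 was listed at 0 in all 3 libraries, and for Ccna2 the partner Exosc9 was at 2.53, 2.40 and 2.18 FPKM. For Kif4, which shares 15.1% of its exon bases with Pdzd11, the partner was at 14.64, 17.87 and 16.69 FPKM, above Kif4 itself (1.38, 1.36 and 0.74 FPKM) in every library. Ccnb1 and Mad2l1 have near-identical pseudogene transcripts, none of which is in the table, so their values are uncertain to that extent.

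Genes of the same pathway outside the 50 were lower by less. Of 78 other mitotic genes written down, 74 were in the table and 49 had a mean of at least 1 FPKM. Among these 1 was called lower (Cdca3), no more than the 2.32% of all genes, and 12 were lower by at least 0.5, against 7.01%. None was called higher, and the median difference was -0.39. Below both AAV-Ctrl libraries lay 45 of the 49, against 41.9% of all genes, and 1 lay above both, against 38.9%. The shares of 2.32% and 7.01% are the background for the lists that follow. Cdca3, a mitotic entry factor, was at 10.28, 11.15 and 4.36 FPKM, and the kinase gene Pbk at 2.64, 2.95 and 0.95 FPKM. The most abundant, Cks2, encoding a CDK1-binding protein, was at 45.05, 50.98 and 47.91 FPKM, with AAV-IL-27 between the AAV-Ctrl libraries. Hjurp, the chaperone of CENP-A, was at 19.47, 20.31 and 19.22 FPKM, near level as Cenpa itself was.

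The core anaphase-promoting complex and cohesin differed little. Of 26 genes, 0 were called lower and 2 were lower by at least 0.5, with a median of -0.13. Rad21, the cohesin subunit that separase cleaves, was at 56.49, 53.20 and 49.95 FPKM, and Ube2s, which elongates ubiquitin chains for the complex, at 54.32, 56.61 and 48.44 FPKM. The exceptions by size were Esco2, a cohesin acetyltransferase, at 1.63, 1.59 and 0.42 FPKM and Fbxo5 (EMI1), an inhibitor of the complex, at 2.74, 2.98 and 1.25 FPKM. Ube2s was thus at 87.3% of its AAV-Ctrl mean, while Ube2c and Cdc20, which serve the same complex, were at 45.3% and 51.5%.

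Among the regulators that control mitotic promoters, 1 of 18 was called lower, and the median difference was -0.16. Mybl2, encoding B-Myb, was at 2.34, 2.46 and 0.94 FPKM (39.2%). Tfdp2, a dimer partner of E2F factors, was at 4.34, 3.22 and 0.61 FPKM and was called lower. The abundant Tfdp1 and E2f2 were at 91.35, 91.96 and 92.08 FPKM and at 75.28, 74.63 and 65.72 FPKM. B-Myb therefore lay further below its AAV-Ctrl level than Foxm1 did.

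Genes of the G1 phase had a median of -0.25 over 13, with 0 called lower and 3 lower by at least 0.5. Ccne1, cyclin E1, was at 2.40, 3.20 and 0.88 FPKM, Ccnd3, cyclin D3, at 441.89, 436.98 and 360.93 FPKM, and the antiproliferative Btg1 at 189.17, 170.00 and 220.01 FPKM. Replication licensing and fork genes were lower by more than the mitotic genes. Of 22, 8 were called lower and 16 were lower by at least 0.5, with a median of -0.86 beside 0.21 between the AAV-Ctrl libraries. Rrm2, the small subunit of ribonucleotide reductase, was at 14.81, 15.31 and 3.54 FPKM, Pcna, the sliding clamp, at 23.42, 27.39 and 9.09 FPKM, and Mcm2, a helicase subunit, at 4.73, 6.23 and 1.30 FPKM. In each of the 3 genes AAV-Ctrl 2 was the highest library and AAV-IL-27 the lowest, the order found for most mitotic genes.

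Set beside these lists, 12 genes that every cell uses had a median difference of -0.06 with 0 called, and the 12 late neutrophil markers -0.05. The 9 granulocyte progenitor markers above the minimum had a median of 0.27, with 0 called either way, the 6 monocyte markers 0.11 and the 2 T and NK markers above the minimum 0.12. The median gaps between the controls (AAV-Ctrl 2 minus AAV-Ctrl 1) were 0.21, 0.08 and 0.23 for these 3 lists. Erythroid markers had a median of -2.53, B lineage markers -1.87, macrophage markers -1.78 and megakaryocyte markers -1.28. The differences of the mitotic genes (lowest -1.58) were smaller than most of the erythroid ones, which lay between -3.24 and -1.33. How much of the mitotic difference came with each of these cell types was not tested.

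**Figure D4:**
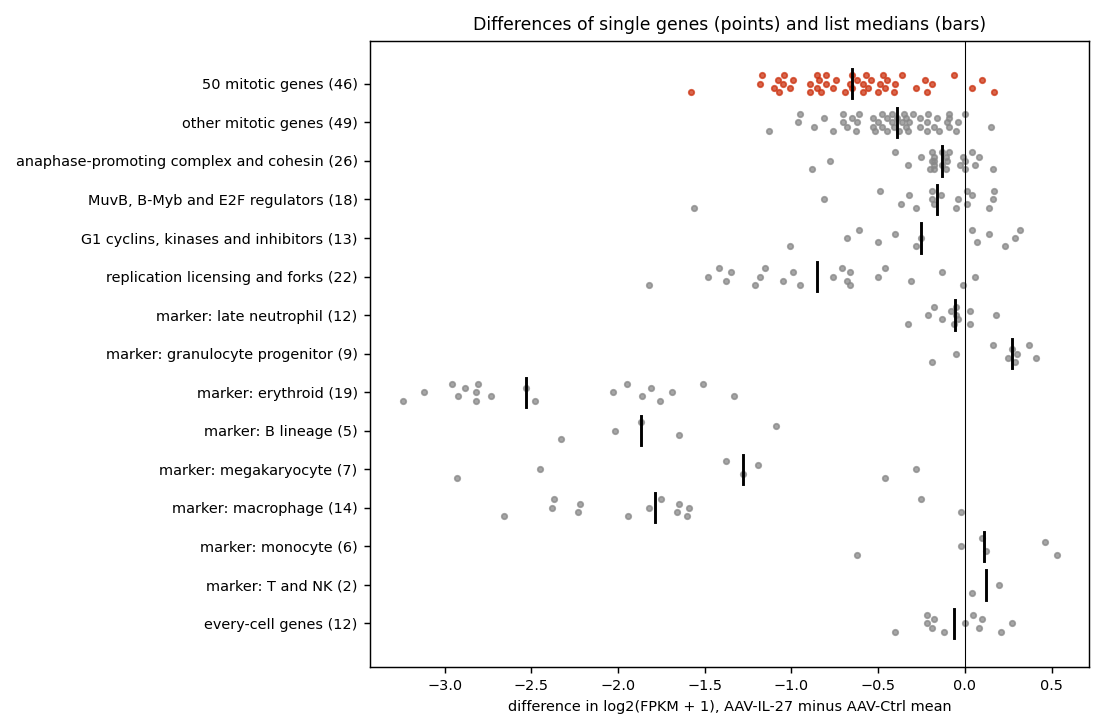
Difference in log2(FPKM + 1) between AAV-IL-27 and the AAV-Ctrl mean for single genes (points) and the median of each list (bars), for genes with a mean of at least 1 FPKM, whose number is given in brackets. The mitotic genes centre on -0.65, between the replication genes at -0.86 and the other mitotic genes at -0.39, with erythroid markers furthest left at -2.53.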

How the data were processed

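RNA of BM Ly6G+ cells was enriched for mRNA with oligo-dT, and strand-marked cDNA was sequenced on a DNBSEQ platform. The authors deposited FPKM values with 2 decimals for 16073 rows, of which 1 without a gene symbol was left out. The submitters' processing notes name the build mm10. The aligner and counting tool are not given in the sources used here. The design text counts 4 mice and lists 3. The table also holds 1 column of per-sample values whose name marks it as another AAV-IL-27 replicate. It fits none of the listed samples and was left out, although the study's figure legend counts 2 mice a group. That legend names the cells Gr-1+, where the sample titles say Ly6G+.

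Groups were taken from the sample titles. No test was run, since only 1 AAV-IL-27 library is labelled and used. Differences used log2(FPKM + 1) among 9130 genes with a mean of at least 1 FPKM, and a call required 1 log2 unit to each AAV-Ctrl library. The members and lists were chosen with earlier results of these data known. Values in every library are given for the most abundant members of each role, for members that differ from their role in being called and for those that were higher. The remaining members' values were added after they were seen. Of other lists up to 4 genes are named, by level and by size of difference.

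Depth was estimated from the low end of the FPKM scale (421, 390 and 411 values) over 10787 single-transcript genes, with 70 nt subtracted from each length. Of these values 74.1%, 74.4% and 71.8% fell within 0.15 of whole fragments, so fragment numbers are estimates and no count model was used. NCBI Gene numbers of 16035 genes matched RefSeq, which gave coordinates and promoter windows. Overlapping genes and transcripts came from GENCODE M21, and near-identical transcripts (at least 95% over 300 nt) from BLAST 2.17.0. Alternatives were pseudocounts of 0.1 and 0.01, other filters and thresholds, a common FPKM total, median-ratio scaling, leaving out each AAV-Ctrl library, and windows from 150 bases before the start. The scripts were tested on simulated data. Calculations ran in Python 3.11.15 with pandas 2.3.3, numpy 2.4.6 and scipy 1.17.1, and matplotlib 3.10.9 drew the plots.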

Additional observations from a re-analysis of the deposited data

How the results depend on the processing

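The count of mitotic genes called lower, 6 of 46, was 14 with a pseudocount of 0.1 (4.35% of all genes) and 15 with 0.01 (4.67%), 3 after rescaling to equal FPKM totals (2.09%, without Ccna2, Birc5 and Mki67), 2 after rescaling by median ratios (2.06%, Cdc25b and Nusap1), 25 when 0.5 was the threshold (7.01%) and 0 when it was 2 (0.427%). Leaving out 1 AAV-Ctrl library gave 6 to 11, the 11 without AAV-Ctrl 1 (3.22% of all genes) and the 6 without AAV-Ctrl 2 (2.66%), and the 6 genes called with both were among them in each case. The count of genes called higher was 0 in every one of these settings. The median difference of -0.65 was -0.93 and -0.97 with pseudocounts of 0.1 and 0.01 and -0.81 among the 18 genes with a mean of at least 5 FPKM, and it lay from -0.76 to -0.54 without 1 AAV-Ctrl library. The smaller pseudocounts shrink the differences of low genes less by construction. Under all settings 47 genes were negative, Kif23 and Pttg1 were positive, and Cenpa took either sign. Rescaling moved the median of all genes to 0.031 and 0.048. With windows from 150 bases before the start, TTTGAA stood in 33 of 44 member windows, against 11.2% of all windows. No paired analysis was possible because only replicate number 2 is common to AAV-Ctrl and AAV-IL-27. With 1 AAV-IL-27 library used, and a further column of that name left out for want of a listed sample, the spread of that group was not measured here. Among members with estimated fragments, depth limits Cdc25c most, with 13 in AAV-IL-27.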
